A study of Mus musculus with 47 samples.

Results

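Nucleosome signal around binding sites of the clock transcription factor CLK:BMAL1 was compared between Bmal1-/- and wild-type mouse liver at ZT22, 22 h after lights on and late in the dark phase. The comparison takes the libraries of that time by their labels, 4 wild-type mice (replicates 11, 12, 26 and 27) and 3 Bmal1-/- mice (replicates 5, 9 and 10), so 7 of the 47 libraries of the series. Per the labels, all were adults of 3 to 6 months, recorded as strain C57BL/6 and kept in cycles of 12 h light and 12 h dark, with no other allele or agent given. The labels do not say how the Bmal1-/- line was made, or whether the gene is lost in liver alone. Replicate 8 of the Bmal1-/- mice has a library at each of the other 5 times, and no ZT22 library of it was analysed here. Nuclei were purified from formaldehyde-crosslinked liver with no sort of cell types named, so the signal averages over the cells of the tissue. The files hold no gene-level values, so neither cell type markers nor the deleted gene could be read.

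A nucleosome is a stretch of DNA wound around a core of histone proteins. Micrococcal nuclease (MNase) cuts the DNA between nucleosomes, and the fragments that survive are sequenced, so a dip in MNase signal marks a place where fewer nucleosomes protected the DNA. CLOCK and BMAL1 bind together to E-box elements and switch on the genes of the clock's negative arm, the Per, Cry and Nr1d families, as well as many metabolic genes of the liver. In mouse liver this binding is known to be strongest in the light phase, so ZT22 lies away from its peak. Without BMAL1 the heterodimer cannot form and the molecular clock stops.

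The authors deposited MNase signal averaged over sets of ChIP-seq peaks, as 300 values that are 10 bp apart across a 3 kb window centred on the peaks. There were 27 such sets, which share peaks: all peaks, 10 deciles of the ranked list, genomic classes, and smaller sets drawn from the top of these. A further set, gene body peaks outside introns, was obtained by subtraction. Of 3217 listed peaks, 43.9% were in introns and 6.56% in other parts of gene bodies. Transcription start sites (TSS) held 18.1%, while 9.14% were intergenic but within 10 kb of a gene and 22.3% lay further out. The peaks ranked 2 and 3, for example, lay at chr11:68908211-68908501 and chr11:98644571-98645021 (mm9), both intergenic within 10 kb of a gene. Values are given below as relative signal, in percent of the flank, the mean signal beyond 1000 bp from the middle of the same profile. Relative central signal averages the positions up to 150 bp from the middle; the median listed peak was 309 bp wide.

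Depth did not differ between the 2 genotypes by more than the spread between mice. The signal moves in whole steps, each the worth of 1 fragment, which gave relative depths averaging 1.39 ± 0.404 for wild-type mice (SD, n = 4) and 1.25 ± 0.214 for Bmal1-/- mice (SD, n = 3; exact permutation p = 0.686), with the shallowest library, Bmal1-/- 10, at 1. The deepest was wild type 26, at 1.97, against 1.10 to 1.35 in the other wild-type mice. With all peaks summed, a position near the middle was covered by 23251 to 45874 fragments, which leaves a counting error of 0.467% to 0.656%. In 1 decile the counting error of relative central signal was at most 1.63 percentage points, and in the smallest set, of 74 peaks, at most 3.52. These errors cover counting alone. No 2 of the 7 profiles were alike enough to be 1 library deposited more than once: pairs of mice differed along the all-peak profile with an SD of 2.12 to 6.11 percentage points.

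One library stood apart in shape. In Bmal1-/- 5 the bottom of the all-peak trough was flat: relative signal within 100 bp of the middle stayed between 86.7% and 88.6%. In the other 6 mice it spanned 4.19 (wild type 11) to 14.7 percentage points (wild type 26) over the same stretch. The rise from the floor, taken as the mean from 100 to 150 bp less the mean within 50 bp, was 0.182 percentage points in Bmal1-/- 5 and 3.75 to 20.003 in the other 46 libraries of the series, with none lower. The same replicate number at the other times gave 3.75 to 9.51, so low values also occurred there. Single sets varied. At intron peaks 0 of the other 46 libraries had a lower rise than Bmal1-/- 5. In decile 7 this number was 15, and in gene body peaks outside introns 19. This measure was chosen after the profiles were seen and is a description. The main differences are given below with and without Bmal1-/- 5, and some others only with it. Its part in them was otherwise not tested.

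**Figure D1:**
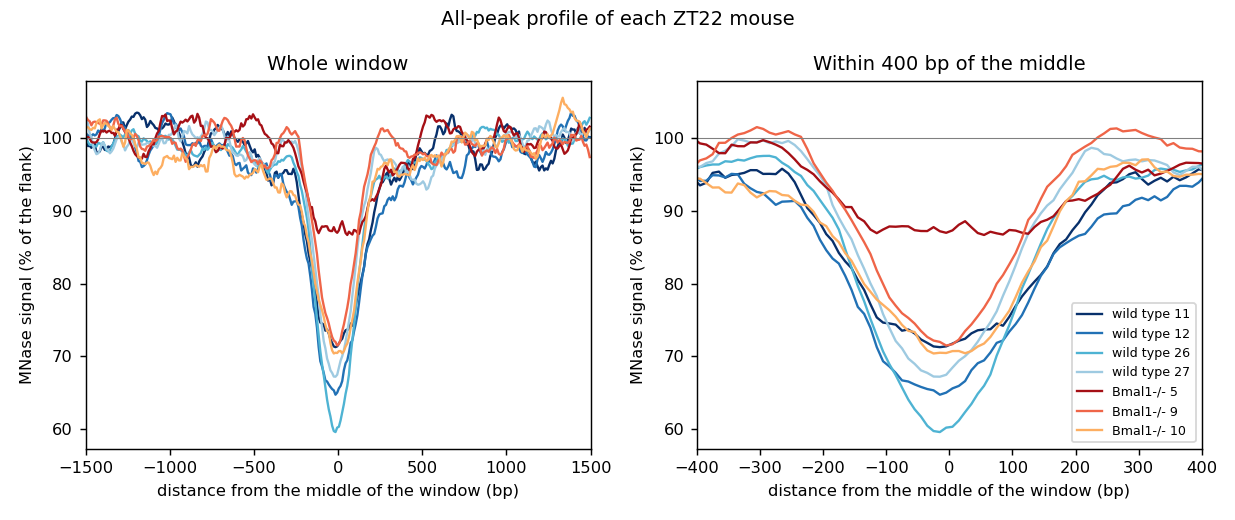
MNase signal in percent of the flank (y axis) against distance from the middle of the window in bp (x axis), averaged over all peaks, with 1 line per ZT22 mouse (blue, wild type; red to orange, Bmal1-/-). Lines are not smoothed, and every mouse has a trough at the middle. Within 100 bp of the middle its lowest values run from 59.5% to 71.2% in wild type. There Bmal1-/- 5 is flat at 86.7% to 88.6%, while Bmal1-/- 9 and 10 reach 71.5% and 70.4%.

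The first question was whether the dip at CLK:BMAL1 sites is as deep without BMAL1 at this time of day. Over all peaks, relative central signal was 74.8%, 70.3%, 69.1% and 75.3% in wild type 11, 12, 26 and 27, and 87.5%, 78.9% and 75.1% in Bmal1-/- 5, 9 and 10. So 2 of 3 Bmal1-/- mice lay above every wild-type mouse, and Bmal1-/- 10 fell 0.190 percentage points short of the highest one. The means were 72.4% ± 3.13 (SD, n = 4) and 80.5% ± 6.36 (SD, n = 3). The difference of 8.14 percentage points was not beyond the spread between mice (exact two-sided permutation test, p = 0.0571; adjusted p = 0.15 over 28 sets). Without Bmal1-/- 5 it was 4.63 percentage points (exact permutation p = 0.2, where 2 mice against 4 allow no p below 0.0667). The 35 assignments of 7 mice allow no p below 0.0286.

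The depth of the trough itself also overlapped between genotypes, though through another wild-type mouse. Its lowest value, smoothed over 50 bp, was 71.5%, 65.2%, 59.998% and 67.5% in wild type 11, 12, 26 and 27, and 86.9%, 71.9% and 70.5% in Bmal1-/- 5, 9 and 10. Wild type 11 lay above Bmal1-/- 10, and the other 2 Bmal1-/- mice lay above every wild-type mouse. Minima differed by 10.4 percentage points, within the spread between mice (exact permutation p = 0.0857; 5.17 and p = 0.267 without Bmal1-/- 5). The lowest point lay 15 bp upstream of the middle in wild type 11, 12 and 26 and 25 bp upstream in wild type 27. It lay 5 bp upstream in Bmal1-/- 9 and 10 and, on the flat floor of Bmal1-/- 5, 65 bp downstream. On a grid of 10 bp these groups did not overlap (exact permutation p = 0.0286, adjusted p = 0.1 over 7 measures of shape), but without smoothing the exact p was 0.486. Here upstream means towards the first value of a profile, taken as the side of lower genome coordinates. Nothing in the files says whether windows were turned to follow a gene, so this orientation is not known.

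The centre was also read on each side of the middle. On the upstream side of the centre relative signal was 74.3%, 68.6%, 67.1% and 72.9% in wild type 11, 12, 26 and 27, and 87.7%, 77.4% and 74.8% in Bmal1-/- 5, 9 and 10. All Bmal1-/- mice lay above all wild-type mice, and the means differed by 9.26 (exact permutation p = 0.0286, adjusted p = 0.1 over 7 measures; 5.41 and exact p = 0.133 without Bmal1-/- 5). On the downstream side the difference was 7.02 and the groups overlapped (exact permutation p = 0.114, adjusted p = 0.2). The difference between these sides was not tested, and the sets varied. In the top 25% of TSS peaks only the upstream side had no overlap, as over all peaks. In the top 25% of intron peaks only the downstream side had none. Over the 28 sets the groups did not overlap in 8 on the upstream side (28.6%) and in 8 on the downstream side (28.6%), each time with Bmal1-/- higher. In the first decile the downstream side differed by 12.3 percentage points (unadjusted exact permutation p = 0.0286) and the upstream side by 11.7 (p = 0.0571). Along the all-peak profile the groups did not overlap over 50 bp in all, at 95, 85, 75 and 55 bp upstream of the middle and 1 position further out, each time with Bmal1-/- higher (over the positions of every set this share was 4.94%).

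Outside the trough of the all-peak profile the genotypes overlapped. From 150 to 500 bp from the middle relative signal averaged 93.9% ± 1.96 in wild type (SD, n = 4) and 96.02% ± 2.31 in Bmal1-/- mice (SD, n = 3), which is 2.11 percentage points more (exact permutation p = 0.2). From 500 to 1000 bp the difference was 0.509 (exact permutation p = 0.629). Some smaller sets differed from this. In the top 200 intergenic peaks beyond 10 kb all Bmal1-/- mice lay above all wild-type mice, by 8.18 percentage points from 150 to 500 bp (unadjusted exact permutation p = 0.0571) and by 5.97 from 500 to 1000 bp (p = 0.0286). The set of the top 25% of such peaks, which shares peaks with it, also had no overlap in either zone. From 500 to 1000 bp decile 5 was higher in Bmal1-/- by 2.93 (unadjusted exact permutation p = 0.0286), whereas decile 9 differed by -3.78 with every Bmal1-/- mouse below every wild-type mouse (p = 0.0571). Over the 28 sets the groups did not overlap with Bmal1-/- higher in 2 (7.14%) in the nearer zone and 3 (10.7%) in the further one, and with Bmal1-/- lower in 0 (0.0%) and 1 (3.57%).

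Over all peaks the trough was 370, 340, 270 and 250 bp wide at its mid level in wild type 11, 12, 26 and 27. It was 450, 250 and 320 bp wide in Bmal1-/- 5, 9 and 10. These widths overlapped (exact permutation p = 0.657), and the sign of their difference turned from 32.5 to -22.5 bp without Bmal1-/- 5.

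As scaled by the authors, without division by the flank, the centre did not separate the genotypes. Central signal was 4.94 ± 0.268 in wild type (SD, n = 4) and 5.29 ± 0.697 in Bmal1-/- mice (SD, n = 3), in the units of the authors (exact permutation p = 0.4). Flank signal was 6.82 ± 0.164 and 6.55 ± 0.339 (SD, n = 4 and 3; exact permutation p = 0.229). Without Bmal1-/- 5 the central difference moved from 0.346 to -0.0458. So the higher relative signal of Bmal1-/- 9 and 10 went with a lower flank, at 6.41 and 6.30 against 6.69 to 7.05 in wild type, while their centres, at 5.06 and 4.73, lay within the wild-type range of 4.72 to 5.27. Bmal1-/- 5 had a centre above that range, at 6.07, and a flank within the wild-type range, at 6.93.

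Every position of every profile was then tested. limma, on log2(relative signal + 1) over 8400 positions of 28 sets, called 0 positions higher (0.0%) and 0 lower (0.0%) in Bmal1-/- at a Benjamini-Hochberg adjusted p under 0.05 (smallest adjusted p = 0.680). At an unadjusted p under 0.05, 505 positions (6.01%) were higher and 78 (0.929%) lower. On the authors' scale, without division by the flank, these shares were 0.762% higher and 2.40% lower, and with each profile centred on its median 4.88% higher and 2.08% lower, again with 0 called by limma. Among the 840 positions within 150 bp of a middle, 25.5% were higher at that level in relative signal. This central share depended on single mice and on the scale. It was 5.24% without Bmal1-/- 5, 6.19% without wild type 26 and 36.4% without Bmal1-/- 10. On the authors' scale it was 0.833%, and with each profile centred on its median 30.2%. With all 47 libraries in 1 fit, limma also called 0 positions in either direction (663 positions or 7.89% higher and 1.64% lower at an unadjusted p under 0.05). Counted without a test, the 3 Bmal1-/- mice were all above the 4 wild-type mice at 415 positions (4.94%) and all below at 99 (1.18%). By distance from the middle, the share above was 19.05% of positions within 150 bp, 6.28% from 150 to 500 bp, 2.82% from 500 to 1000 bp and 1.89% beyond 1000 bp. Each profile was divided by its mean beyond 1000 bp, so mice could not differ in mean level in that last zone. The fall of these shares with distance is therefore not a test of where the genotypes differ. The share below was 0% within 150 bp. Neighbouring positions and overlapping sets share fragments, so these are not counts of independent sites.

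The deciles of the ranked list showed the same direction throughout. Mean relative central signal was higher in Bmal1-/- mice in 10 of 10 deciles, by 4.04 to 11.99 percentage points, with a median of 8.42. Over all 28 sets it was higher in 28, with a median difference of 8.56. All sets come from the same mice, so these counts are not independent. Bmal1-/- 5 was the highest mouse in 10 of 10 deciles. Of the 28 sets, 3 had an exact p under 0.05 (10.7%) and 8 had groups that did not overlap (28.6%). After adjustment 0 of 28 (0.0%) passed (smallest adjusted p = 0.15). Bmal1-/- 5 lay above every wild-type mouse in 27 sets, Bmal1-/- 9 in 21 and Bmal1-/- 10 in 11. Without Bmal1-/- 5 the mean was higher in Bmal1-/- mice in 27 of 28 sets, with a median difference of 5.73, and the groups did not overlap in 8.

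The largest difference among the deciles was in the first, the top of the list. Relative central signal there was 76.8%, 71.1%, 65.2% and 73.4% in wild type 11, 12, 26 and 27, and 89.7%, 80.1% and 81.1% in Bmal1-/- 5, 9 and 10. The groups did not overlap, with a gap of 3.26 percentage points between the lowest Bmal1-/- and the highest wild-type mouse. The difference was 11.99 percentage points (exact permutation p = 0.0571, adjusted p = 0.15) and 8.94 without Bmal1-/- 5. In this decile the groups did not overlap over 200 bp of the 300 bp at the centre, against 50 bp over all peaks. As scaled by the authors, without division by the flank, central signal of this decile overlapped between genotypes (exact permutation p = 0.257). It was 6.35, 5.28 and 5.04 in Bmal1-/- 5, 9 and 10, and 4.55 to 5.55 in wild type. Flanks of Bmal1-/- 9 and 10, at 6.59 and 6.22, lay below the wild-type range of 6.68 to 7.23. The flank of Bmal1-/- 5, at 7.08, lay within it. In relative signal, deciles 3 and 4 reached the smallest exact p of 0.0286 (adjusted p = 0.15 each). In decile 3 the values were 77.6%, 74.005%, 69.02% and 76.6% in wild type 11, 12, 26 and 27, and 93.6%, 84.4% and 78.8% in Bmal1-/- 5, 9 and 10, with means 11.3 percentage points apart. Decile 4 had 75.4%, 74.99%, 71.9% and 73.97% for the wild-type mice in that order, against 84.2%, 78.5% and 82.5% for Bmal1-/- 5, 9 and 10, and its means differed by 7.66. Without Bmal1-/- 5 the differences were 7.31 in decile 3 and 6.44 in decile 4. With the centre within 50 bp the exact p was 0.143 in decile 3 and 0.114 in decile 4. Decile 4 had the tightest wild-type values of all deciles (SD 1.58).

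In the other deciles at least 1 Bmal1-/- mouse lay within the wild-type range. The smallest differences were in decile 10, at 4.04 percentage points (exact permutation p = 0.343), and decile 2, at 4.58 (p = 0.286). Decile 5 had the widest spread among Bmal1-/- mice, at 91.5%, 78.01% and 69.2% in replicates 5, 9 and 10. Its difference was 8.49 (exact permutation p = 0.257), and 2.53 without Bmal1-/- 5. Over the 10 deciles, relative central signal had a slope of -0.0956 ± 0.654 percentage points per decile among wild-type mice (SD, n = 4). Among Bmal1-/- mice the slope was -0.468 ± 0.423 (SD, n = 3). These slopes did not differ by more than their spread (difference -0.372, exact permutation p = 0.371). The first decile lay above the last by 5.65, 1.62 and 6.40 percentage points in Bmal1-/- 5, 9 and 10. In wild type it lay below the last in replicates 11, 26 and 27 and 1.92 above it in replicate 12 (exact permutation p = 0.0857).

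**Figure D2:**
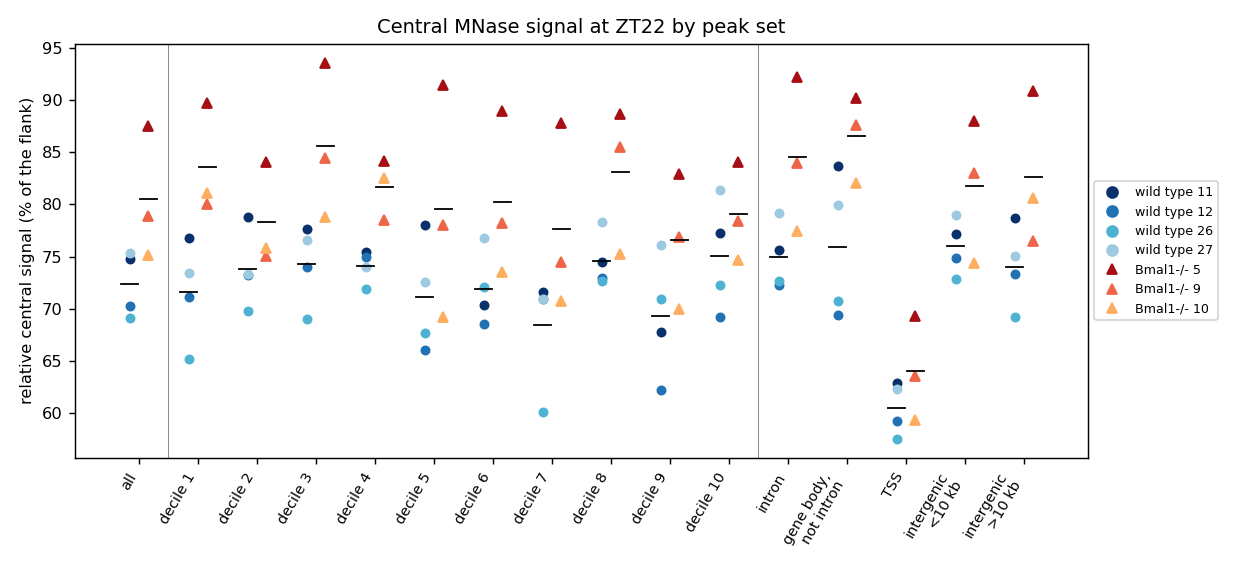
Relative central signal in percent of the flank (y axis) for all peaks, the 10 deciles and the 5 genomic classes (x axis), with circles for the 4 wild-type mice, triangles for the 3 Bmal1-/- mice and bars for group means. Means are higher in Bmal1-/- in each set shown; Bmal1-/- 5 is the highest mouse in each, and TSS peaks are the lowest class in every mouse.

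Among the genomic classes, TSS peaks had the deepest trough in each of the 7 mice. TSS regions of active genes are known to be depleted of nucleosomes, whatever the factor bound there. Relative central signal at TSS peaks was 62.9%, 59.3%, 57.5% and 62.3% in wild type 11, 12, 26 and 27, and 69.3%, 63.6% and 59.3% in Bmal1-/- 5, 9 and 10. The groups overlapped, and their means were 3.56 percentage points apart (exact permutation p = 0.257, adjusted p = 0.3; 0.930 without Bmal1-/- 5). At TSS peaks Bmal1-/- 5 did have a curved trough, with a rise of 14.05 percentage points from the floor, against -4.38 at intron peaks. That rise at TSS peaks was still low, as 2 of the other 46 libraries lay below it (median 21.5).

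Intron peaks were shallower and further apart between genotypes. Their relative central signal was 75.6%, 72.3%, 72.6% and 79.1% in wild type 11, 12, 26 and 27, and 92.2%, 83.98% and 77.4% in Bmal1-/- 5, 9 and 10. The difference was 9.63 percentage points (exact permutation p = 0.0857, adjusted p = 0.15; 5.79 without Bmal1-/- 5), and wild type 27 lay above Bmal1-/- 10. In gene body peaks outside introns the means were 10.7 percentage points apart, from 75.9% ± 6.97 (SD, n = 4) to 86.6% ± 4.17 (SD, n = 3; exact permutation p = 0.114). Intergenic peaks beyond 10 kb, where enhancers far from genes are found, had a difference of 8.63 (exact permutation p = 0.0857). Those within 10 kb of a gene had a difference of 5.80 (exact permutation p = 0.2). Without Bmal1-/- 5 the differences were 4.51 beyond 10 kb and 2.69 within 10 kb.

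Taking classes as differences within a mouse removes a level that all sites of a library share. Intron peaks lay above TSS peaks by 12.7, 13.03, 15.1 and 16.9 percentage points in wild type 11, 12, 26 and 27, and by 22.9, 20.4 and 18.2 in Bmal1-/- 5, 9 and 10. All Bmal1-/- mice lay above all wild-type mice, and the gap between genotypes was thus 6.06 percentage points wider at introns than at TSS (exact permutation p = 0.0286). Over the 4 such class comparisons the adjusted p was 0.114. The difference was 4.86 without Bmal1-/- 5, with groups that still did not overlap (exact permutation p = 0.0667, the smallest possible), and its exact p was 0.0571 with the flank beyond 750 bp and 0.0857 with a flank further out or the centre within 250 bp. Gene body peaks outside introns exceeded TSS peaks by 15.4 ± 4.70 percentage points in wild type (SD, n = 4) and 22.6 ± 1.62 in Bmal1-/- mice (SD, n = 3). These values did not overlap either, by a margin of 0.0504 (exact permutation p = 0.0571, adjusted p = 0.114). For intergenic peaks within and beyond 10 kb the groups overlapped, with differences of 2.24 and 5.07 (exact permutation p = 0.2 and 0.143).

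**Figure D3:**
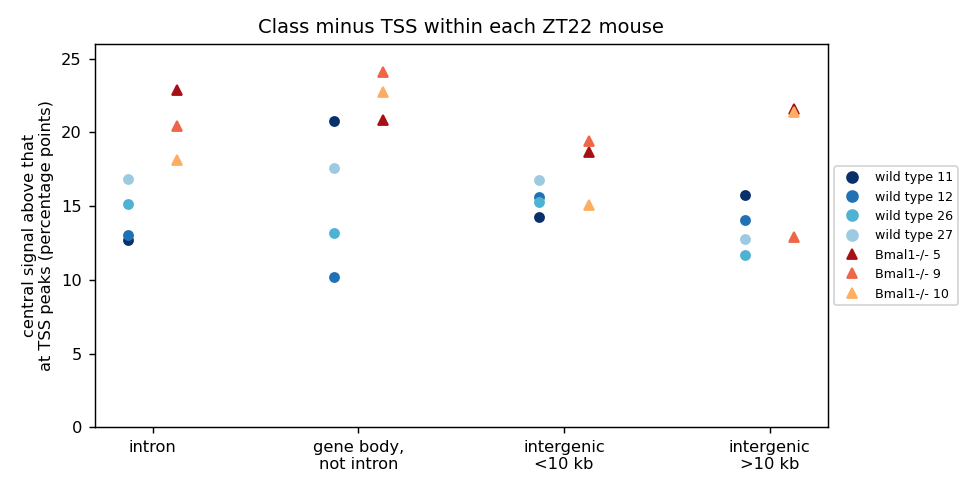
Relative central signal of each class less that at TSS peaks of the same mouse, in percentage points (y axis), for 4 classes (x axis), with circles for wild-type and triangles for Bmal1-/- mice. For intron peaks the 3 Bmal1-/- mice, at 18.2 to 22.9, lie above the 4 wild-type mice, at 12.7 to 16.9; for both intergenic classes the genotypes overlap.

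The sets drawn from the top of each class added 1 case in which Bmal1-/- mice were close to each other. In the set of the top 25% of TSS peaks, relative central signal was 56.7%, 59.8%, 57.3% and 61.05% in wild type 11, 12, 26 and 27, and 65.1%, 65.7% and 65.2% in Bmal1-/- 5, 9 and 10. The groups did not overlap, and the means were 6.63 apart (exact permutation p = 0.0286, adjusted p = 0.15). With the centre within 250 bp the exact permutation p was 0.114. Here Bmal1-/- 5 was not the highest mouse, and without it the difference was 6.76 (exact permutation p = 0.0667, the smallest possible). The trough minimum in this set was 50.7%, 50.97%, 47.4% and 47.7% for the wild-type mice, against 55.6%, 56.7% and 55.9% for Bmal1-/- 5, 9 and 10, again without overlap (exact permutation p = 0.0286). The top 200 TSS peaks had a difference of 5.33 and no overlap (exact permutation p = 0.0571). Whether the top TSS peaks differ more between genotypes than all TSS peaks was tested within mice, and the value of 3.07 percentage points was within their spread (exact permutation p = 0.371).

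Of these smaller sets the top 400 intron peaks had the largest difference, at 11.6 (exact permutation p = 0.0571), and 6.14 without Bmal1-/- 5. Their values in Bmal1-/- 5, 9 and 10 were 98.7%, 84.5% and 79.9%, so that the first of these was nearly level with its flank. The smallest set, of 74 intergenic peaks, was the least even of the smaller sets. Its SD was 10.7 in wild type (n = 4) and 10.8 in Bmal1-/- mice (n = 3). In the 74 peaks that form the top 25% of intergenic peaks within 10 kb of a gene, the genotypes differed by 0.518 percentage points (exact permutation p = 1). There wild type 11 was at 98.2% and the other wild-type mice at 76.2% to 77.6%, with counting errors of at most 3.52 percentage points per mouse.

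ZT22 was also set against other times of day. The order of the Bmal1-/- mice at ZT22 was unlike that of the same replicate numbers at other times. Over all peaks, replicate 5 was the highest of replicates 5, 9 and 10 at 1 of 6 times, which was ZT22, and replicate 10 was the lowest at 1 of 6 times, again ZT22. Replicate 5 had 87.5% at ZT22 and 79.8%, 70.5%, 74.5%, 75.3% and 75.3% at ZT02, ZT06, ZT10, ZT14 and ZT18. The missing replicate 8 was the lowest of the 4 Bmal1-/- mice at 3 of its 5 times over all peaks and at 4 of 5 in the first decile. For a like-for-like reading, the difference without replicate 8 over all peaks was 12.7, 13.6, 9.49, 10.9 and 6.21 percentage points from ZT02 to ZT18, against 8.14 at ZT22, which thus ranked 5 of 6.

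The change between times was then tested itself. By limma over 47 libraries, the genotype difference of all peaks at ZT22 exceeded that at ZT18 by 4.57 ± 5.10 percentage points (SE; adjusted p = 0.718 over 28 sets). Against ZT02 the change was -2.32 ± 5.10 (SE; limma adjusted p = 0.784), and against the mean of the other 5 times the value was -0.847 ± 4.05 (SE; limma adjusted p = 0.991). In the first decile the change from ZT18 was 10.1 ± 5.34 (SE; limma unadjusted p = 0.0601, adjusted p = 0.579), and 7.80 ± 4.97 without replicate 8 (limma adjusted p = 0.976). For each of the 3 contrasts limma called 0 of 28 sets (0.0%), with 1 set at an unadjusted p under 0.05 in each. That set was decile 7 against ZT18 (10.46, unadjusted p = 0.0414) and the 74 intergenic peaks against ZT02 and against the other 5 times (-15.3 and -11.2, unadjusted p = 0.0137 and 0.0231). Against ZT02 limma did call these 74 peaks under 2 other settings, with the centre within 50 bp (-25.8, adjusted p = 0.0190) and without wild type 27 (-18.99, adjusted p = 0.0467). Over the other settings the smallest limma adjusted p of this contrast ran from 0.0581, with the replicate number as a block, to 0.966, without Bmal1-/- 10. This is the set in which wild type 11 stood apart at ZT22. Without wild type 11 limma called 0 sets (smallest adjusted p = 0.909), as it did in the main fit. The part of that mouse in the 2 calls was not tested.

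**Figure D4:**
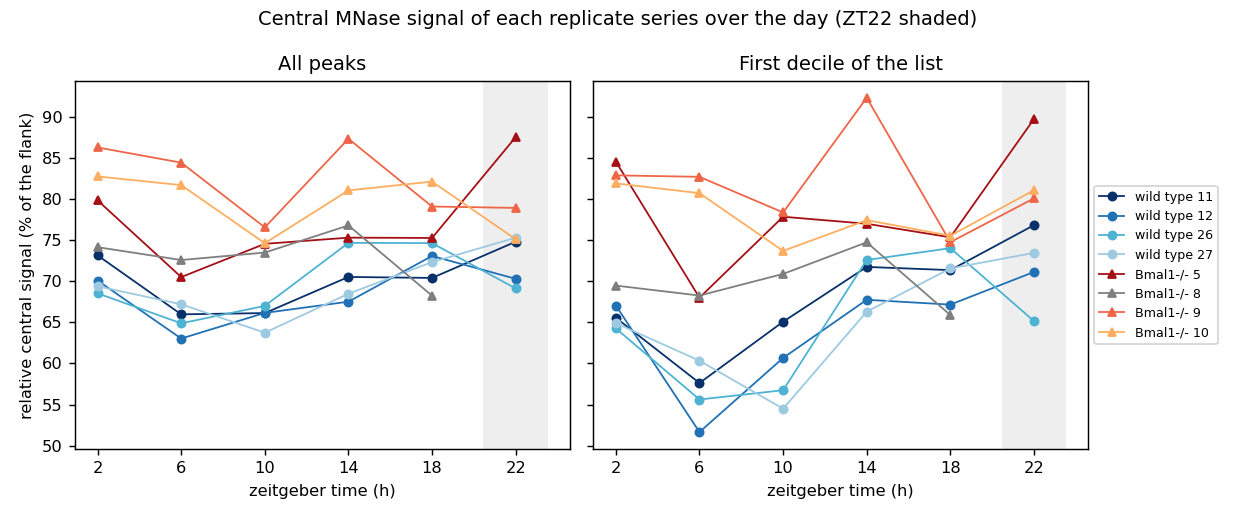
Relative central signal in percent of the flank (y axis) against zeitgeber time in h (x axis) for all peaks (left) and the first decile (right), with 1 point per mouse. Lines join mice of the same replicate number, which are different animals; ZT22 is shaded, and there Bmal1-/- 5 is the highest at 87.5% and 89.7%, while replicate 8 has no point.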

How the data were processed

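MNase-seq libraries of mouse liver were analysed from the deposited tables. Per the submitters' processing notes, CASAVA 1.7, Bowtie and the mm9 build were used; no Bowtie version, read filter or scaling step is given in the sources used here. What was deposited is a signal, a scaled coverage that the authors averaged over the peaks of a set, so no single peak or gene has a value; every set deposited is covered. The mm9 positions are those of the deposited peak list.

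Each profile was divided by its flank. Exact permutation tests took mice as units, two-sided by the absolute difference of means; p-values measure the spread between these mice. limma 3.58.1 (R 4.3.3, eBayes with a trend) ran on log2(relative signal + 1), which slightly understates changes, and without a trend on the set values for the comparison of times; Benjamini-Hochberg adjustment covered all positions or sets, at 0.05. The limma and permutation tests were checked on simulated data. For limma these were independent positions with the wild-type spread in both groups. Neighbouring positions share fragments here, so that check does not show how small a change limma would call in these data. The comparison and peak sets were chosen with earlier results of these data known. Python 3.11.15 and numpy 2.4.6 were used. Alternatives were other centres, flanks, pseudocounts, scalings and each mouse left out.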

Additional observations from a re-analysis of the deposited data

Results flagged for a closer look

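In 38 groups of values of the 4 wild-type mice at ZT22, 3 had a mouse far from the others; chance flags about 5% of such groups. In decile 7, wild type 26 had a relative central signal of 60.1% and the nearest mouse 70.9%. In the 74 intergenic peaks, wild type 11 had 98.2% and the nearest mouse 77.6%. The trough minimum over all peaks lay 25 bp upstream of the middle in wild type 27 (position -25) and 15 bp upstream in the other 3 wild-type mice, a distance of 1 step of the 10 bp grid. Groups of 3 were not examined, so Bmal1-/- 5 was described in the report without such a test.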

How the results depend on the processing

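Leaving out 1 mouse gives designs with no exact p below 0.0667 or 0.1, so no call can survive it. The difference over all peaks then ran from 4.63 to 10.8 percentage points, in the first decile from 8.94 to 13.8, and for introns less TSS from 4.86 to 7.23. The slope over deciles ran from -0.581 to -0.150, the trough minimum from 5.17 to 13.3 and its width from -22.5 to 77.5 bp. On the authors' scale the centre ran from -0.0458 to 0.623, the flank from -0.470 to -0.153 and the whole window from -0.398 to 0.00773. The count of sets past exact p 0.05 was 0 each time, and limma called 0 positions under each of its alternatives.

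With the flank beyond 750 bp, all peaks gave 8.14 (exact permutation p = 0.0286) and 7 sets passed in place of 3. A doubled one-sided p cannot fall below 0.0571 with these mice, so by its construction 0 sets passed and the 6.06 of introns less TSS could not be called. With the centre within 250 bp the first decile gave 8.26 (exact permutation p = 0.0286). Introns less TSS gave 4.52 with the centre within 250 bp, 6.04 with the flank beyond 750 bp, and 5.27 with one further out, none past the threshold; the cause was not tested. Against ZT02 limma called 1 set, the top 25% of intergenic peaks within 10 kb, with the centre within 50 bp (-25.8) and without wild type 27 (-18.99).

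Values near 0 turned sign. The top 25% of intergenic peaks within 10 kb gave -2.52 with the centre within 50 bp, -0.489 with the flank beyond 750 bp, and -0.996, -1.45, -1.34, -1.68 and -3.45 without replicates 12, 26, 27, 5 and 9 (6.68 without 10). The zone from 500 to 1000 bp gave -0.217 with the flank further out, -0.336 without replicate 5 and 1.24 without replicate 10. Against ZT18 the difference ran from 0.761 to 9.26 over all peaks and from 6.97 to 12.5 in the first decile. Against ZT02 it ran from -6.13 to 1.05 over all peaks (0.317 without replicate 9) and from -5.68 to 0.566 in the first decile. Against the other 5 times it ran from -5.27 to 2.73 over all peaks, with 1.59 and 0.331 without replicates 9 and 27. In the first decile it ran from -3.38 to 3.34, with 1.39, 0.776, 0.0184 and 0.570 without replicates 10, 11, 12 and 27, and was 0.254 with the centre within 50 bp.

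The 2 genotypes share no replicate number at ZT22, so only the comparison of times could take a replicate block. Same-numbered mice deviated together (correlation over 0.1 over the sets) in 5 of 7 series and 3 of 7 correlated best with their own number, so the numbers were not taken as pairs. With the replicate block, ZT22 against ZT18, ZT02 and the other 5 times gave 2.98, -3.92 and -2.44 over all peaks, and limma called 0 sets in each. The smallest limma adjusted p was 0.869, 0.0581 and 0.0877 in that order.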
